A study of Mus musculus with 32 samples.

Results

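7 genes of the mouse chromosome 16 segment from Mrpl39 to Zbtb21 make or handle RNA and ribosomes, or lie against one that does: Son, Paxbp1, Scaf4, Urb1, Mrpl39, Mrps6 and Donson. They were taken from the raw count table by symbol and are 7 of its 55401 genes, and 7 of the 77 genes of the segment that passed the filter on low counts, among 285 annotated there. The rule uses no measured value, but folds of these libraries were already known when the genes were proposed. Cerebral cortex RNA was depleted of ribosomal RNA and sequenced from mice aged 6 weeks. Ts65Dn;Df(17)2 mice (n = 10, 5 females and 5 males) carry the segment on an additional, freestanding chromosome, with a deficiency on chromosome 17. Dp(16)1/Df(16)8 mice (n = 10, 5 females and 5 males) carry it as a duplication inside chromosome 16, with a deficiency on the homologue. Euploid +/+ mice (n = 12, 6 females and 6 males) have neither. As background, the deficiencies take out the parts that the 2 aneuploid chromosomes do not share, so that both lines hold about the same genes in 3 copies. In bulk tissue fewer cells of a type and less RNA per cell cannot be told apart.

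A transcript in the nucleus is spliced by a machine whose factors gather in nuclear speckles, is cut and released at the end of the gene, and, when it encodes protein, is read by ribosomes. Cytosolic ribosomes are put together in the nucleolus, while mitochondria have ribosomes of their own, whose RNA comes from mitochondrial DNA and whose proteins all come from nuclear genes. Neurons depend on both, and in each kind of ribosome the proteins stand in fixed proportions. In all of these assemblies many partners are encoded on other chromosomes.

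By role, Son, a large protein of the nuclear speckle core that binds RNA and helps splice introns with weak splice sites, lies at chr16:91647506-91679221 on the plus strand (GRCm38, ENSMUSG00000022961.18). Paxbp1, named for binding the transcription factors PAX3 and PAX7 and related in sequence to splicing factors of the GCFC family, lies at chr16:91014037-91044543 on the minus strand (ENSMUSG00000022974.12). Scaf4, which binds the tail of RNA polymerase II and, in human cells, guards against premature ends of transcription together with its paralogue SCAF8, lies at chr16:90225680-90284503 on the minus strand (ENSMUSG00000022983.16). Urb1, a nucleolar protein of early large-subunit assembly, lies at chr16:90751527-90810413 on the minus strand (ENSMUSG00000039929.14). Mrpl39 and Mrps6, proteins of the large and the small subunit of the mitochondrial ribosome, lie at chr16:84717576-84735742 on the minus strand (ENSMUSG00000022889.7) and chr16:92058270-92112227 on the plus strand (ENSMUSG00000039680.10). Donson, which protects replication forks and helps assemble the replicative helicase, is no RNA-processing gene. It lies at chr16:91676808-91688770 on the minus strand (ENSMUSG00000022960.13), tail to tail with Son. All 7 are annotated as protein coding.

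The promoters of 6 of the 7 genes are shown, all but that of Donson. Each is the RefSeq window (GRCm38.p6) from 250 bases before to 50 bases after the start site, written 5′ to 3′ on the gene's own strand. Capitals mark matches, on either strand, to the letters named for that gene, which were searched for in all 32817 RefSeq promoter windows of 300 bases. Son, the gene of the 7 whose fold was above 1.5 past the threshold of the test in both genotypes, holds 3 CCAAT boxes (CCAAT, the NF-Y motif, in 37.4% of all windows) and 1 YY1 match (ATGGCGGC, in 2.24%).
Son, chr16:91647574-91647873, plus strand: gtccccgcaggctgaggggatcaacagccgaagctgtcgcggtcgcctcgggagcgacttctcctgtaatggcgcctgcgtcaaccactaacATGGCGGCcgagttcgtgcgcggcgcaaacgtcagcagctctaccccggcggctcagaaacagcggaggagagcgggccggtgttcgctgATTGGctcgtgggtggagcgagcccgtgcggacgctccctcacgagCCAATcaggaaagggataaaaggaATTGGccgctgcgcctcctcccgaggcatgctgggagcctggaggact
Scaf4 and Urb1, with folds below 1.5 in both genotypes and past the threshold of that test in 1 genotype each, hold GC boxes (GGGCGG, in 35.6% of all windows), 3 in Scaf4 and 4 in Urb1. Urb1 also has 1 ETS match (CCGGAAG, in 8.86%).
Scaf4, chr16:90284454-90284753, minus strand: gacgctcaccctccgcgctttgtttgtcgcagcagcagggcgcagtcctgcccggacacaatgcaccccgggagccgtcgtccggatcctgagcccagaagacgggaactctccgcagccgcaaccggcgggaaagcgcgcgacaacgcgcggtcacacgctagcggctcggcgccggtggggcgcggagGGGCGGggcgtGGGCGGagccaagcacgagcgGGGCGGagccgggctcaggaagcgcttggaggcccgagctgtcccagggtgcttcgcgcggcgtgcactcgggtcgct
Urb1, chr16:90810364-90810663, minus strand: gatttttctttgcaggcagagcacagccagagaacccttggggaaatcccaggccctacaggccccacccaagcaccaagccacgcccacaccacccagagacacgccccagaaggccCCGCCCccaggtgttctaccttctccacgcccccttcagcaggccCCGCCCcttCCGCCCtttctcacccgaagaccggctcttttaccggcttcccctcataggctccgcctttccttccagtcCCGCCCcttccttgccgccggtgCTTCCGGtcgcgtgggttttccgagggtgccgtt
Mrpl39 and Paxbp1 each hold 1 palindromic NRF1 match (GCGCATGCGC), which 0.966% of all windows hold. Mrpl39 also holds 1 CCAAT box and Paxbp1 also holds 1 GC box, both left in lower case.
Mrpl39, chr16:84735195-84735494, minus strand: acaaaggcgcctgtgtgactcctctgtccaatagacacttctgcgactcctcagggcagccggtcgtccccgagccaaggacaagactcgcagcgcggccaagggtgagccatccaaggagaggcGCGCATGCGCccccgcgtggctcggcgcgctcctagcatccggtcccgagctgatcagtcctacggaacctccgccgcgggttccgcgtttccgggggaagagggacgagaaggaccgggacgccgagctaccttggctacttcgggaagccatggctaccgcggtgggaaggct
Paxbp1, chr16:91044330-91044629, minus strand: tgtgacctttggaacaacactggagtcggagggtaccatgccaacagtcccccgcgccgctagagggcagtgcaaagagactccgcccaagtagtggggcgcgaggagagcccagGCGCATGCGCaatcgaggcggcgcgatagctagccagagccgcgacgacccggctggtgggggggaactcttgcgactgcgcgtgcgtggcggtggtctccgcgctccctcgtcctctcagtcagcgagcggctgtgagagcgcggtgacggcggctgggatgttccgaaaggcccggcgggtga
Mrps6 holds 4 GC boxes, of which the first and the second share 1 base, and no NRF1 match.
Mrps6, chr16:92058086-92058385, plus strand: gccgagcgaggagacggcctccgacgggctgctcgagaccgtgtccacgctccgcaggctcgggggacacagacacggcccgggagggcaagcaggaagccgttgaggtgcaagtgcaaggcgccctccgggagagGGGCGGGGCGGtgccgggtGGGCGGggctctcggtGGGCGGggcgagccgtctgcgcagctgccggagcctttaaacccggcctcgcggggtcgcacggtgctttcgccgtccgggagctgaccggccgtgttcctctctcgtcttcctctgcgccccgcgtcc
The start of Mrps6 lies 14 bases from that of Slc5a3, a myo-inositol transporter gene, and their windows share 286 bases, so this window belongs to both genes. A match is a description of letters, not a site shown to be bound, and the windows were not tested against the folds. Scaf4 has a second RefSeq window, which is not shown and holds 3 GC boxes and 1 YY1 match. The window of Donson, the gene with the largest folds of the 7, is not shown either. It holds 5 GC boxes and 1 ETS match, so these motifs are not confined to genes with low folds.

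Libraries held 6392531 to 11189548 counts in Ts65Dn;Df(17)2, 5795479 to 9149196 in Dp(16)1/Df(16)8 and 6375698 to 8532009 in +/+. Sex-linked transcripts matched the labelled sex in 31 of 32 libraries and not in Dp(16)1/Df(16)8 replicate 2. Without it all 7 genes again passed in both genotypes, with folds of 1.34 to 1.73 in Ts65Dn;Df(17)2 and of 1.25 to 1.71 in Dp(16)1/Df(16)8, and the same number stood apart from 1.5. The summed level of 16 markers of striatal neurons varied between libraries of every group. It ran from 1430 to 5204 CPM (normalised counts scaled to a common library size) in Ts65Dn;Df(17)2, from 690.5 to 5746 CPM in Dp(16)1/Df(16)8 and from 654.4 to 5904 CPM in +/+, with medians of 3858, 3913 and 1281 CPM in that order. None of these 16 markers passed the test, all 16 had positive log2 folds in both genotypes, and 14 were detected in every library. All 10 markers of excitatory cortical neurons were detected in every library. Of these, 5 fell in Ts65Dn;Df(17)2 and none passed in Dp(16)1/Df(16)8. Only 1 of the 10, Bcl11b, had a positive log2 fold in either genotype. Their summed levels were 976.3 to 1764 CPM in Ts65Dn;Df(17)2, 987 to 2090 CPM in Dp(16)1/Df(16)8 and 1019 to 2102 CPM in +/+. The medians were 1435, 1550 and 1982 CPM in that order, lower in both aneuploid groups than in +/+. With the striatal score as a term, all 7 genes kept their calls, with folds of 1.36 to 1.73 in Ts65Dn;Df(17)2 and of 1.25 to 1.73 in Dp(16)1/Df(16)8.

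All 7 genes rose in both aneuploid genotypes, by 1.34-fold to 1.73-fold in Ts65Dn;Df(17)2 and by 1.25-fold to 1.73-fold in Dp(16)1/Df(16)8 against +/+ (7 of 7 in each, edgeR quasi-likelihood F test with Benjamini-Hochberg adjustment over 16042 genes). Over all tested genes 1.75% passed and were higher in Ts65Dn;Df(17)2, against 0.418% in Dp(16)1/Df(16)8. Of the 77 segment genes, 62 passed in Ts65Dn;Df(17)2 and 55 in Dp(16)1/Df(16)8. In Ts65Dn;Df(17)2 every animal stood above every +/+ animal for 6 of the 7 genes, all but Mrpl39, and in Dp(16)1/Df(16)8 for 7 of 7. Over all tested genes 0.33% were so separated in Ts65Dn;Df(17)2 and 0.243% in Dp(16)1/Df(16)8.

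**Figure D1:**
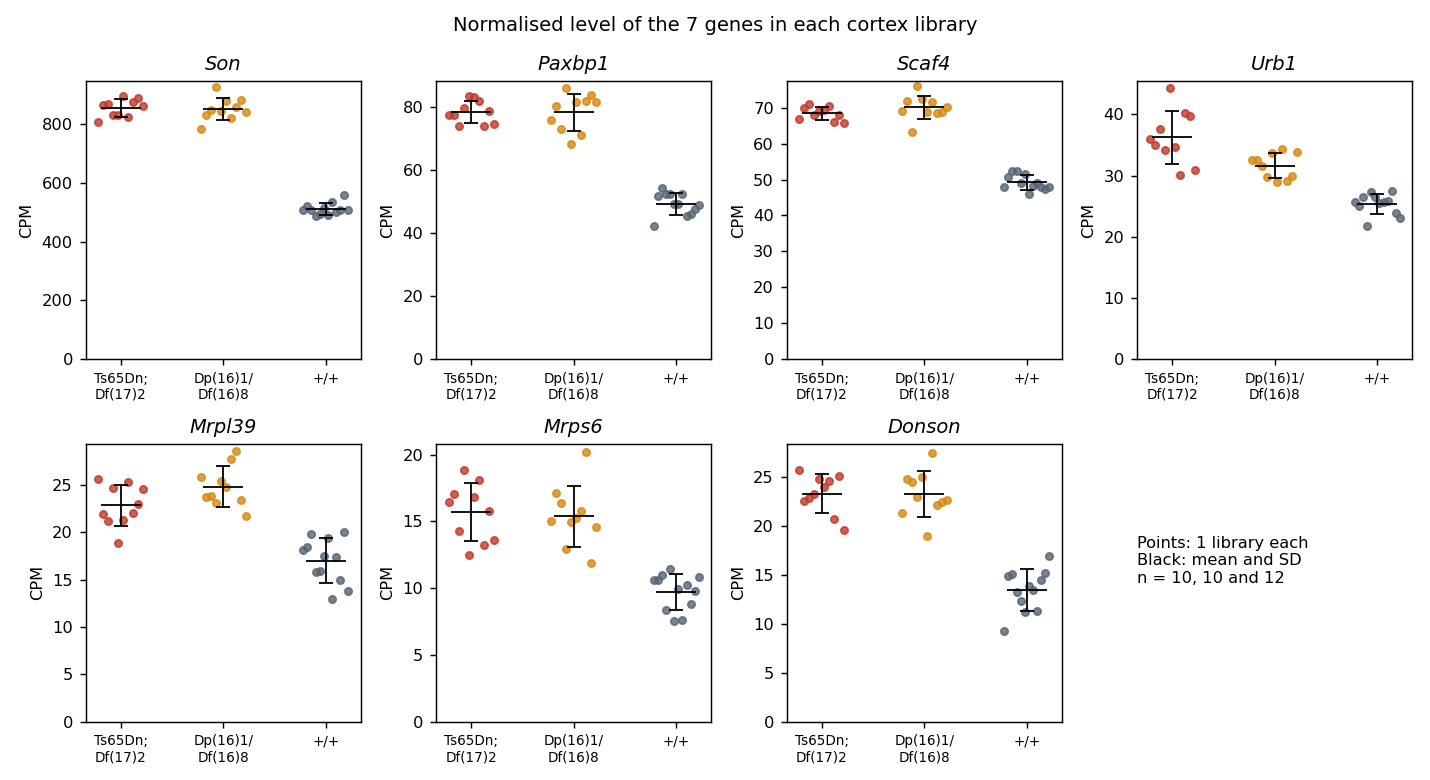
Normalised level (CPM, linear axes from 0) of the 7 genes in Ts65Dn;Df(17)2 (n = 10), Dp(16)1/Df(16)8 (n = 10) and +/+ (n = 12) cortex, where each point is 1 library and black bars are the mean and SD. Levels of Son in the aneuploid animals start at 783.1 CPM, above the highest +/+ value of 557.7 CPM, while the lowest Ts65Dn;Df(17)2 value of Mrpl39, 18.8 CPM, lies within the +/+ range.

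Son was the most abundant of the genes. Its level ran from 807 to 895.9 CPM in Ts65Dn;Df(17)2 (median 863.3), from 783.1 to 924.5 CPM in Dp(16)1/Df(16)8 (median 846.5) and from 486.8 to 557.7 CPM in +/+ (median 506.9). The groups with 3 copies overlapped each other almost wholly and lay clear of +/+. The fold was 1.67 in Ts65Dn;Df(17)2 (95% interval 1.61 to 1.74, adjusted p = 4.7e-19) and 1.67 in Dp(16)1/Df(16)8 (1.60 to 1.74, adjusted p = 1.2e-18, edgeR). These values rest on 3173 to 9123 counts per library, so counting error was 1.19% to 1.62% of the group means, against a spread between animals of 3.51% to 4.50%.

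Set against the 1.5 that 3 copies in place of 2 predict, Son was higher in both genotypes (adjusted p = 0.000392 in Ts65Dn;Df(17)2 and 0.000354 in Dp(16)1/Df(16)8 over the 77 segment genes). It was 1 of 2 segment genes that passed this test above 1.5 in Ts65Dn;Df(17)2 (2.6% of those tested) and the 1 such gene in Dp(16)1/Df(16)8 (1.3%). By size of fold, however, Son ranked 13 of 77 in Ts65Dn;Df(17)2 and 11 of 77 in Dp(16)1/Df(16)8. Donson ranked 9 in each and did not pass, with a standard error of 0.077 on the log2 scale, against 0.029 for Son. Relative to the median of 70 other segment genes in the same library, with the +/+ mean set to 1, Son stood at 1.05 to 1.19 in Ts65Dn;Df(17)2, at 1.05 to 1.18 in Dp(16)1/Df(16)8 and at 0.944 to 1.045 in +/+. All 10 animals of each aneuploid genotype were above 1, and 4 of 12 +/+ animals were. Within the largest block of neighbouring animal numbers, which holds 8 Ts65Dn;Df(17)2, 3 Dp(16)1/Df(16)8 and 6 +/+ animals, the fold was 1.65 and 1.69, and the difference from 1.5 no longer passed (adjusted p = 0.156 and 0.103, edgeR).

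Paxbp1 ran from 74.1 to 83.5 CPM in Ts65Dn;Df(17)2 (median 78.2), from 68.2 to 86.2 CPM in Dp(16)1/Df(16)8 (median 81.1) and from 42.3 to 54.4 CPM in +/+ (median 49.3). Both aneuploid groups lay clear of +/+. Its fold was 1.59 (1.496 to 1.69, adjusted p = 2.6e-13) in Ts65Dn;Df(17)2 and 1.59 (1.49 to 1.69, adjusted p = 4.0e-13) in Dp(16)1/Df(16)8, and neither passed against 1.5 (adjusted p = 0.195 and 0.302, edgeR). A noncoding transcript on the other strand, 4930404I05Rik, shares 1142 exon bases with Paxbp1, which is 20.7% of the exons of Paxbp1. It drew 7 counts over all libraries, against 16643 for Paxbp1. The strand setting of the counting is not given, so whether reads in that stretch were counted for Paxbp1 is not known.

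Scaf4 varied little between animals, with an SD of 2.73% to 4.71% of the group mean and a counting error of 4.21% to 5.22%. In Ts65Dn;Df(17)2 and +/+ Scaf4 spread no more than counting error alone gives. It ran from 65.6 to 70.9 CPM in Ts65Dn;Df(17)2 (median 68.5), from 63.3 to 75.9 CPM in Dp(16)1/Df(16)8 (median 69.7) and from 46.0 to 52.3 CPM in +/+ (median 48.6). No aneuploid animal fell within the +/+ range. The fold was 1.39 (1.33 to 1.45, adjusted p = 7.2e-14) in Ts65Dn;Df(17)2 and 1.43 (1.37 to 1.48, adjusted p = 1.6e-14) in Dp(16)1/Df(16)8. It was below 1.5 in Ts65Dn;Df(17)2 (adjusted p = 0.0120) and did not pass in Dp(16)1/Df(16)8 (adjusted p = 0.124), and the difference between the 2 genotypes did not pass (Ts65Dn;Df(17)2 over Dp(16)1/Df(16)8, ratio 0.976, 0.935 to 1.02). The call in Ts65Dn;Df(17)2 was lost with no filter on low counts (adjusted p = 0.0766), with blocks of animal numbers as terms (0.177) and within the largest block (0.273), all with edgeR.

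Its paralogue Scaf8, with the same role in human cells, lies on chromosome 17, which has a deficiency in Ts65Dn;Df(17)2. Whether the rearrangement of that line reaches Scaf8 was not examined. Scaf8 averaged 97.2 ± 3.8 CPM in Ts65Dn;Df(17)2, 91.2 ± 6.7 CPM in Dp(16)1/Df(16)8 and 94.3 ± 4.6 CPM in +/+ (SD, n = 10, 10 and 12). Its folds of 1.03 and 0.968 did not pass (edgeR, adjusted p = 0.487 and 0.584). Per length Scaf4 was below Scaf8 in all 3 groups: Scaf4 had 12.3, 12.6 and 8.87 CPM per kilobase of exon in Ts65Dn;Df(17)2 cortex, in Dp(16)1/Df(16)8 cortex and in +/+ cortex, against 16.5, 15.5 and 16.0 for Scaf8. The speckle protein gene Srrm2 had folds of 1.02 and 0.986, and Gcfc2, the relative of Paxbp1, had 0.952 and 1.05, none past the threshold (edgeR, adjusted p of 0.567 or more).

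Urb1 had folds that differed between the aneuploid genotypes at an unadjusted p under 0.05 but not after adjustment. It ran from 30.1 to 44.3 CPM in Ts65Dn;Df(17)2 (median 35.5), from 28.9 to 34.3 CPM in Dp(16)1/Df(16)8 (median 32) and from 21.8 to 27.4 CPM in +/+ (median 25.7). The Ts65Dn;Df(17)2 animals spread upward past the top of Dp(16)1/Df(16)8, the lower parts of the 2 ranges overlapped, and +/+ lay below both. The fold was 1.43 (1.32 to 1.54, adjusted p = 4.8e-08) in Ts65Dn;Df(17)2 and 1.25 (1.15 to 1.35, adjusted p = 0.000732) in Dp(16)1/Df(16)8. In Dp(16)1/Df(16)8 it was below 1.5 (adjusted p = 0.000928), with rank 73 from the highest among 77 segment genes, and in Ts65Dn;Df(17)2 it did not pass (adjusted p = 0.392, rank 58). Within the largest block of animal numbers the fold was 1.403 in Ts65Dn;Df(17)2 and 1.18 in Dp(16)1/Df(16)8, where it no longer passed against +/+ (adjusted p = 0.329, 3 animals) but stayed below 1.5 (adjusted p = 0.0453, edgeR).

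Urb2, the partner that binds Urb1 in yeast, averaged 24.1 ± 2.3 CPM in Ts65Dn;Df(17)2, 22.9 ± 2.1 CPM in Dp(16)1/Df(16)8 and 23.1 ± 2.2 CPM in +/+ (SD, n = 10, 10 and 12). Its folds of 1.04 and 0.993 did not pass (edgeR, adjusted p = 0.606 and 0.957). Per kilobase of exon, Urb1 and Urb2 stood at 4.43 and 3.91 CPM in Ts65Dn;Df(17)2, at 3.86 and 3.72 in Dp(16)1/Df(16)8 and at 3.09 and 3.75 in +/+, so that Urb1 stood above Urb2 in both aneuploid genotypes and below it in +/+. In both aneuploid genotypes the pair lay within 1 SD of each other, taking the larger SD (0.531 CPM per kilobase in Ts65Dn;Df(17)2 and 0.346 in Dp(16)1/Df(16)8).

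Of the mitochondrial ribosome genes, Mrpl39 ran from 18.8 to 25.6 CPM in Ts65Dn;Df(17)2 (median 22.5), from 21.7 to 28.6 CPM in Dp(16)1/Df(16)8 (median 24.3) and from 12.96 to 20.05 CPM in +/+ (median 17.5). 1 Ts65Dn;Df(17)2 animal lay within the +/+ range, the other 9 above it. Its fold was 1.34 (1.22 to 1.48, adjusted p = 0.000248) in Ts65Dn;Df(17)2 and 1.46 (1.32 to 1.61, adjusted p = 3.1e-06) in Dp(16)1/Df(16)8, and neither passed against 1.5 (adjusted p = 0.139 and 0.704). Within the largest block of animal numbers the folds were 1.20 and 1.33, neither past the threshold against +/+ (adjusted p = 0.207 and 0.0631, edgeR), and there the fold in Ts65Dn;Df(17)2 was below 1.5 (adjusted p = 0.0173).

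Mrps6 was the least abundant of the 7 by count. It ran from 12.5 to 18.9 CPM in Ts65Dn;Df(17)2 (median 16.1), from 11.9 to 20.2 CPM in Dp(16)1/Df(16)8 (median 15.1) and from 7.57 to 11.4 CPM in +/+ (median 10.1). The lowest aneuploid animals sat just above the highest +/+ animal. The fold was 1.61 (1.42 to 1.82, adjusted p = 2.9e-06) in Ts65Dn;Df(17)2 and 1.59 (1.397 to 1.80, adjusted p = 7.1e-06) in Dp(16)1/Df(16)8, and neither passed against 1.5 (adjusted p = 0.449 and 0.642, edgeR). With 48 to 186 counts per library, counting error alone was 8.79% to 11.7% of the group means, and both intervals span 1.5 as well as the fold of Son. Mrps6 shares 159 exon bases with Slc5a3 and 305 with Gm49711 on the same strand, which is 10.4% and 19.9% of its exons. How reads there were assigned is not given in the sources used here. Slc5a3 had folds of 1.496 and 1.46.

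Among 80 other tested genes listed here for the mitochondrial ribosome none rose or fell past the threshold beside Mrpl39 and Mrps6. None of the 32 genes listed for the small subunit and none of the 48 for the large one passed in either genotype (edgeR). Mrpl53, the 1 listed gene not tested, was at 0 in every library. Median log2 folds were 0.0438 and -0.00374 for the small subunit in Ts65Dn;Df(17)2 and Dp(16)1/Df(16)8, and 0.0109 and 0.0104 for the large one, beside 0.00475 and 0.00143 over all tested genes. Summed over the 32 small-subunit genes, levels ran from 543.3 to 563 CPM in Ts65Dn;Df(17)2, from 515.8 to 558.5 CPM in Dp(16)1/Df(16)8 and from 514.7 to 555.6 CPM in +/+. The ranges of Dp(16)1/Df(16)8 and +/+ overlap almost wholly, while that of Ts65Dn;Df(17)2 overlaps the upper part of both.

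The partners of the other genes, outside the segment, gave like counts. None of 24 speckle and SR protein genes passed in either genotype, with median log2 folds of -0.00146 in Ts65Dn;Df(17)2 and 0.00912 in Dp(16)1/Df(16)8. None of 9 tested transcripts that need SON for their splicing in human cells passed, with medians of -0.0432 and -0.00979. Gene counts do not show retained introns, so splicing itself was not measured. None of 24 genes of transcription end passed (medians 0.00713 and -0.00352), and none of 9 genes of lariat release and PAXBP1 partners (0.0191 and 0.0447). Of 28 nucleolar genes of large-subunit assembly 1 passed, upward, in Ts65Dn;Df(17)2, and none did in Dp(16)1/Df(16)8 (medians 0.00104 and 0.0101). None of 19 replication fork genes passed (medians -0.0356 and -0.0165). Over the 193 tested genes of all these lists, 18 had an unadjusted p under 0.05 in Ts65Dn;Df(17)2 (9.33%, against 21.8% of all genes) and 17 in Dp(16)1/Df(16)8 (8.81%, against 12.8%).

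The nucleolar gene that rose was Npm1, which encodes nucleophosmin, an abundant histone chaperone and ribosome assembly protein. Its level ran from 93.7 to 108.3 CPM in Ts65Dn;Df(17)2, from 73.1 to 105.9 CPM in Dp(16)1/Df(16)8 and from 79.2 to 100.6 CPM in +/+. The ranges overlapped, with 3 of 10 Ts65Dn;Df(17)2 animals above the highest +/+ animal. The fold was 1.13 (adjusted p = 0.0373) in Ts65Dn;Df(17)2 and 1.08 in Dp(16)1/Df(16)8 (adjusted p = 0.339, edgeR), and the difference between the genotypes did not pass (adjusted p = 0.9998). The part of the differing striatal marker levels in this value was not tested.

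**Figure D2:**
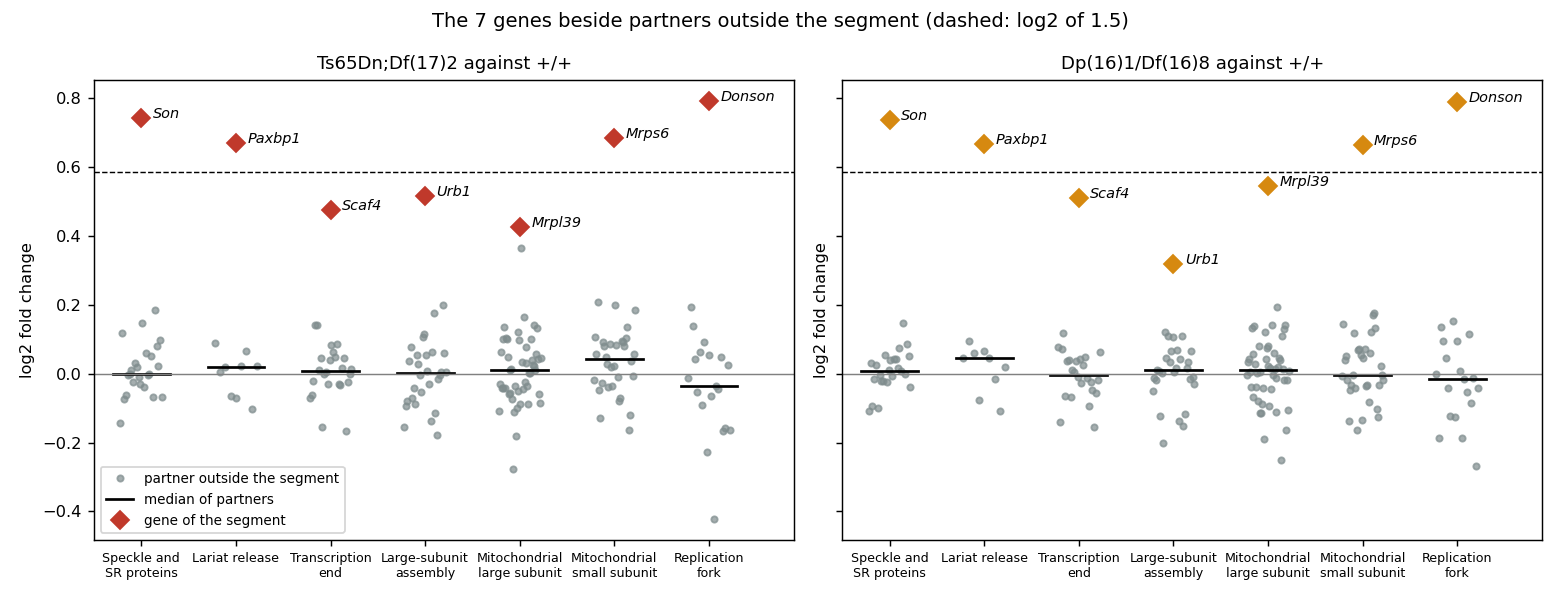
Log2 fold change against +/+ of partners outside the segment (grey points, 1 gene each, with black lines at the medians) and of the 7 genes (diamonds), by assembly, in Ts65Dn;Df(17)2 (left) and Dp(16)1/Df(16)8 (right), with a dashed line at log2 of 1.5. The medians of the 7 lists plotted, which leave out the transcripts that need SON for splicing, run from -0.0356 to 0.0447, while the 7 genes lie between 0.318 and 0.793.

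Donson had the largest folds of the 7. It ran from 19.6 to 25.7 CPM in Ts65Dn;Df(17)2 (median 23.7), from 19.01 to 27.5 CPM in Dp(16)1/Df(16)8 (median 22.8) and from 9.29 to 16.9 CPM in +/+ (median 13.7). No aneuploid value fell within the +/+ range. The fold was 1.73 (1.56 to 1.93, adjusted p = 5.5e-09) in Ts65Dn;Df(17)2 and 1.73 (1.55 to 1.92, adjusted p = 8.6e-09) in Dp(16)1/Df(16)8, rank 9 of 77 in each. Against 1.5 neither passed (adjusted p = 0.0725 and 0.108). The fold in Ts65Dn;Df(17)2 passed when +/+ replicate 11 (adjusted p = 0.0425), +/+ replicate 12 (0.0231) or Ts65Dn;Df(17)2 replicate 10 (0.0377) was left out, and the fold in Dp(16)1/Df(16)8 when +/+ replicate 12 (0.037) or Dp(16)1/Df(16)8 replicate 6 (0.0487) was (edgeR).

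The 3′ ends of Son and Donson share 103 exon bases on opposite strands, which is 0.691% of the exons of Son and 3.29% of those of Donson. Son drew 178497 counts over all libraries and Donson 4867, and the strand setting of the counting is not given in the sources used here, so reads of Son in that stretch and reads of Donson there cannot be told apart. A gene model on the strand of Donson, ENSMUSG00000116933.1, shares 287 exon bases with Donson, which is 9.17% of the exons of Donson, and drew 0 counts. Whether reads in that stretch were counted for Donson is not known. Son and Donson had the 2 highest folds of the 7. Within genotype and sex their levels did not follow each other from animal to animal (Pearson r = -0.0369 over 32 libraries, given as a description).

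**Figure D3:**
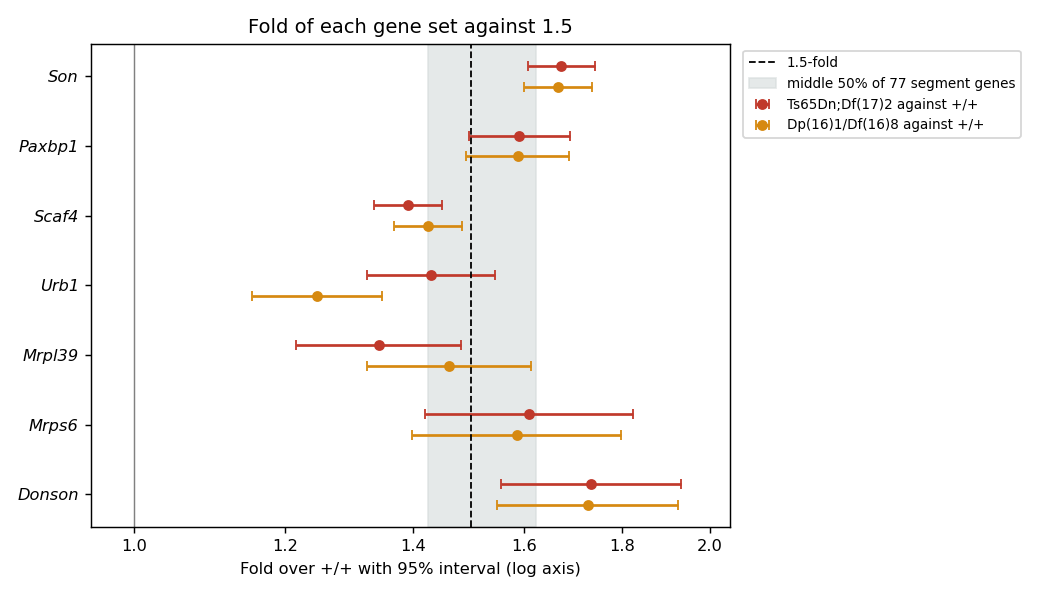
Fold over +/+ (log axis) with its 95% interval for each gene in Ts65Dn;Df(17)2 (upper of each pair) and Dp(16)1/Df(16)8 (lower), with a dashed line at 1.5, where the grey band spans the middle 50% of the 77 segment genes over both comparisons, 1.43 to 1.62. The intervals, not adjusted for the number of genes, of Son and Donson lie above 1.5 in both, those of Scaf4 below it in both, that of Mrpl39 below it in Ts65Dn;Df(17)2 and that of Urb1 below it in Dp(16)1/Df(16)8.

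Against 1.5, 2 of the 7 genes stood apart in each genotype: Son above and Scaf4 below in Ts65Dn;Df(17)2, Son above and Urb1 below in Dp(16)1/Df(16)8. Of all tested segment genes 11.7% stood apart from 1.5 in Ts65Dn;Df(17)2 (9.09% below it), against 7.79% in Dp(16)1/Df(16)8 (6.49% below it). The segment's median fold was 1.504 and 1.54, and the 7 genes were spread over it, with ranks among the 77 from 9 (Donson) to 65 (Mrpl39) in Ts65Dn;Df(17)2 and from 9 (Donson) to 73 (Urb1) in Dp(16)1/Df(16)8. With the segment's median in place of 1.5, Scaf4 was also below it in Dp(16)1/Df(16)8 (adjusted p = 0.00738, edgeR).

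Whether the additional copy sat on a freestanding chromosome or inside chromosome 16 gave no difference past the threshold for these genes. None of the 7 passed between Ts65Dn;Df(17)2 and Dp(16)1/Df(16)8 with edgeR or with DESeq2, beside 0.0499% of all genes with edgeR, and 1 of 7, Urb1, had an unadjusted p under 0.05. Its ratio of Ts65Dn;Df(17)2 over Dp(16)1/Df(16)8 was 1.15 (1.06 to 1.24, unadjusted p = 0.00152, adjusted p = 0.762, edgeR). With blocks of animal numbers as terms 2 of 7 had one, Mrpl39 with a ratio of 0.835 (unadjusted p = 0.00401, adjusted p = 0.937) and Urb1 with a ratio of 1.16 (unadjusted p = 0.00811, adjusted p = 0.9998, edgeR). Without these terms the ratio of Son was 1.00 (0.962 to 1.05), and the widest interval was that of Mrps6, with a ratio of 1.02 (0.893 to 1.15). For Mrpl39 the ratio was 0.919 (0.830 to 1.02), for Paxbp1 1.00 (0.940 to 1.07) and for Donson 1.00 (0.899 to 1.12). Differences within these intervals are not shown to be absent. The 2 folds of each gene against +/+ share the same 12 +/+ animals.

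The changes were not shown to differ between males and females. The change from +/+ differed by sex for none of the 7 in either genotype (edgeR interaction term, smallest adjusted p = 0.9465), with 0 of 7 at an unadjusted p under 0.05 and 0 of 7 with DESeq2, and over all genes 0% passed with edgeR. The widest gap was in Donson, with folds of 1.60 in males and 1.88 in females of Ts65Dn;Df(17)2 and of 1.59 and 1.87 in Dp(16)1/Df(16)8, which share their +/+ animals (unadjusted p = 0.146 and 0.154). Folds of Son in males and females were 1.68 and 1.66 in Ts65Dn;Df(17)2 and 1.66 and 1.67 in Dp(16)1/Df(16)8.

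Per kilobase of exon, the order of levels in Ts65Dn;Df(17)2 was Son (57.3 ± 2.0 CPM), Paxbp1 (14.3 ± 0.66), Scaf4 (12.3 ± 0.34), Mrps6 (10.2 ± 1.4), Mrpl39 (9.02 ± 0.87), Donson (7.46 ± 0.63) and Urb1 (4.43 ± 0.53 CPM, all SD, n = 10). Mrps6 and Mrpl39 lay within 1 SD of each other there. Dp(16)1/Df(16)8 had the same order, with Son at 57.1 ± 2.6 and Urb1 at 3.86 ± 0.25 CPM per kilobase (SD, n = 10), and again Mrps6 (10.1) and Mrpl39 (9.80) did not differ beyond their spread. In +/+ Son stood at 34.3 ± 1.3 and Urb1 at 3.09 ± 0.21 CPM per kilobase (SD, n = 12). There Paxbp1 (8.97) and Scaf4 (8.87) were within their spread, and Mrpl39 (6.72) and Mrps6 (6.35) stood in the other order, also within it.

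Neighbouring genes of the segment placed these folds. Gart, a purine synthesis enzyme gene head to head with Son and with its start site 852 bases away, had folds of 1.46 in Ts65Dn;Df(17)2 and 1.47 in Dp(16)1/Df(16)8, both past the threshold (edgeR, adjusted p = 2.9e-09 and 3.0e-09). Sod1, the cytosolic superoxide dismutase gene beside Scaf4, had 1.54 and 1.60. Synj1, a synaptic phosphatase gene beside Paxbp1, had 1.46 and 1.49, and Cryzl1, beyond Donson, had 1.502 and 1.59. Jam2, an adhesion molecule gene beside Mrpl39, had 1.61 and 1.56, and Atp5o, an ATP synthase subunit gene before Mrps6, had 1.60 and 1.57. These 6 passed in both genotypes, whereas the neighbours Hunk, Mis18a, Eva1c and 4932438H23Rik, with folds of 1.20 to 1.59 and of 1.21 to 1.49, did not pass in either. A separate fixed list of 15 genes of the segment holds some of these flanking genes and others that flank no member. Of that list 14 were tested, and 11 rose in each genotype.

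On the other side of Mrpl39, 193687 bases away and outside the segment as bounded here, the transcript A730009L09Rik had 8 to 31 counts per library in Ts65Dn;Df(17)2, 0 to 12 in Dp(16)1/Df(16)8 and 1 to 6 in +/+. Its lowest Ts65Dn;Df(17)2 level, 1.25 CPM, lay above the highest +/+ level, 0.929 CPM, while Dp(16)1/Df(16)8 overlapped +/+. The fold was 6.93 in Ts65Dn;Df(17)2 (adjusted p = 8.5e-08) and 1.95 in Dp(16)1/Df(16)8 (adjusted p = 0.277, edgeR).

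From animal to animal within genotype and sex, the genes whose log2 CPM followed the members most closely were found over 32 libraries, as a description in which each pair of values shares its library. For Son they were Rhoq (Pearson r = 0.777), Zbtb20 (0.765) and Map3k1 (0.753). For Paxbp1 they were Clk1 (0.737), Clk4 (0.712) and Sox8 (0.709). Mrpl39 followed Eif3a (0.700), Mettl18 (0.658) and Taf15 (0.648), and Mrps6 followed Tram1 (0.658), Emb (0.654) and Ppp1r3c (0.649). The closest for Scaf4 was Fam174a (0.633), for Urb1 Chrac1 (0.656) and for Donson Lcp2 (0.650). Among the 7 themselves the highest r was that of the mitochondrial ribosome genes Mrpl39 and Mrps6 (0.473), followed by Paxbp1 and Scaf4 (0.400), and the lowest that of Son and Mrps6 (-0.268). Striatal marker levels, which varied between libraries of every group, were not taken out of these values. The genes named for each member were the highest among the 16042 tested genes, with Gm, Rik, AC, -ps and similar symbols left out. A highest r picked from so many genes is high by selection, and none was tested.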

How the data were processed

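The authors deposited raw counts per gene, whole numbers without normalization, for 32 libraries. Per the labels' protocols, 500 ng of total RNA was depleted of ribosomal RNA. The submitters' processing notes name STAR 2.7.9a, Subread 1.6.4 with featureCounts, and bcl2fastq 2.20, beside the genome builds GRCh38 and GRCm38.p6. What each build served for, the annotation release and the strand setting are not given in the sources used here. Coordinates come from a GENCODE annotation of GRCm38, matched by identifier for 55141 of 55401 genes.

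Tests used edgeR 4.0.16 (R 4.3.3). Its filterByExpr by genotype left 16042 genes with 99.7% of the counts, TMM factors scaled the libraries, and a quasi-likelihood model with genotype and labelled sex was fitted to all 32 libraries. P was adjusted by Benjamini-Hochberg over all tested genes, with a threshold of 0.05. All 7 genes passed the filter. The standard error is the log2 fold divided by the square root of F, and intervals are 95%. For the test against 1.5, log 1.5 was added to the offsets of an aneuploid genotype and p was adjusted over the 77 tested segment genes. A model with genotype by sex terms tested sex. CPM use the TMM factors, and log2 CPM a prior count of 2. The bounds of the segment come from background knowledge. The scripts were tested on simulated data.

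Alternatives were other scalings, DESeq2 1.42.0, no filter on low counts, no sex term, a striatal marker score, blocks of animal numbers, fewer libraries and each library left out in turn. Library totals of 5795479 to 11189548 counts set the precision, and counting errors cover counting alone, since no molecular identifiers are given. Named genes were, beside the 7, the 3 genes closest to each in residual log2 CPM, tested or exon-sharing neighbours and list members past the threshold. The relatives Scaf8 and Gcfc2, the partner Urb2 and the speckle protein gene Srrm2 were named too. The members and lists were chosen with earlier results of these data known, among them the rise of Son above 1.5, which is not independent support. Promoter windows are RefSeq's, and all 7 members matched by symbol.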

Additional observations from a re-analysis of the deposited data

How the results depend on the processing

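Over all alternatives run, no called value changed direction. Values that had not passed, ratios between the aneuploid genotypes and differences by sex among them, changed sign 53 times. All 7 genes passed against +/+ under every alternative except within the largest block of animal numbers (8 Ts65Dn;Df(17)2, 3 Dp(16)1/Df(16)8 and 6 +/+ animals), an alternative chosen after seeing the data, where 6 of 7 passed in Ts65Dn;Df(17)2 and 5 of 7 in Dp(16)1/Df(16)8. The number standing apart from 1.5 in Ts65Dn;Df(17)2 was 2, Son and Scaf4. It was 1 with no filter on low counts and 1 with blocks of animal numbers as terms, Son each time. Within the largest block it was also 1, but this was Mrpl39, and neither Son nor Scaf4 passed there. In Dp(16)1/Df(16)8 the number was 2, Son and Urb1, and within the largest block 1, Urb1. With the segment's median in place of 1.5 it was 3 in Dp(16)1/Df(16)8, where Scaf4 also passed. With 1 library left out, the genes that passed against 1.5 always did so again. Donson joined them in 3 such runs in Ts65Dn;Df(17)2 and in 2 in Dp(16)1/Df(16)8. Fewer animals enter the largest block. With no filter and with the block terms the cause was not tested, and with the block terms the 2 animals of the lowest-numbered block, both Ts65Dn;Df(17)2, add nothing to the contrast. No paired analysis was possible because the labels give animal numbers only, and the replicate numbers used here only name libraries. Over all genes, 637 passed in Ts65Dn;Df(17)2, against 67 to 1069 under the alternatives and 264 to 1486 with 1 library left out, and 92 passed in Dp(16)1/Df(16)8, against 50 to 236 and 74 to 222. Segment genes apart from 1.5 numbered 9 in Ts65Dn;Df(17)2 (1 to 9, and 6 to 14 with 1 library left out) and 6 in Dp(16)1/Df(16)8 (2 to 7, and 6 to 7). The sex test was not run within the largest block. Depth limits Mrps6, Donson, Mrpl39 and Urb1 most.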
